A study of Mus musculus with 12 samples.

Results

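The collagen chain genes of the mouse and the genes whose products modify, fold, trim and cross-link collagens were examined in renal tubular cells that lack Pkd1 or Pkd2. A gene was taken as a collagen chain when its symbol has the form Col, number, a, number, which 44 genes of the table have. Added to these were 15 processing genes, namely the prolyl 4-hydroxylase subunits P4ha1, P4ha2 and P4ha3, the lysyl hydroxylases Plod1, Plod2 and Plod3, the chaperone Serpinh1, the procollagen proteinase Bmp1, its enhancers Pcolce and Pcolce2, and the lysyl oxidases Lox, Loxl1, Loxl2, Loxl3 and Loxl4. All 59 were found among the 47642 genes listed.

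The RNA came from mIMCD3 cells, an immortalized line of the murine inner medullary collecting duct whose donor mice carried the early region of simian virus 40, which all 3 genotypes therefore share. Wild-type cells were compared with 1 Pkd1-/- clone and 1 Pkd2-/- clone of this line, in 4 libraries per genotype. The Pkd1-/- clone carries the deletions chr17:24550055-24594963 and chr17:24550106-24594903, each of which removes exons 2 to 44 of 46 in the longest annotated transcript. The Pkd2-/- clone carries the deletion chr5:104478281-104490878, which removes exons 4 to 9 of 15. The libraries of a genotype came from separate dishes, 4 chosen from 6 by the purity of the RNA, and the cells were harvested 4 days after full confluency. No drug or other treatment was applied. Pkd1 was deleted with CRISPR and Pkd2 with TALEN, so the mutants also differ in the method of genome editing. With 1 clone per mutant genotype, loss of the gene, the editing and other differences between clones cannot be told apart. Every p-value measures the spread between dishes within lines. In limma, the linear model used below, this spread is pooled over all 3 genotypes. Libraries outside a comparison therefore also enter its limma p-values.

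Values are normalized counts, that is, reads counted per gene and divided by the size factor of the library, of which each library holds 25966273 to 28027792. Pkd1 had 682 to 883 normalized counts in wild-type and 30 to 49 in Pkd1-/- libraries, whereas the counts of Pkd2 over the whole gene (3438 to 4467 in wild-type and 3855 to 4135 in Pkd2-/- libraries) do not check a deletion of some of its exons. The epithelial genes Cdh1, Epcam, Krt7, Krt8, Krt18 and Cldn4 were abundant in all libraries. Of 10 epithelial and collecting duct markers 9 were tested, and none was called against wild-type, where 6.24% (Pkd1-/-) and 9.62% (Pkd2-/-) of all genes were called. At any fold change, 3 of the 9 had an adjusted p under 0.05 in Pkd1-/- and 7 in Pkd2-/- cells, beside 27.1% and 42.3% of all genes. Between the mutants 2 were called, Cldn4 (log2 difference 1.21) and Hsd11b2 (-1.03), where 11.8% of all genes were called. Cldn4 had log2 fold changes of -0.66 in Pkd1-/- and 0.55 in Pkd2-/- cells. The water channel Aqp2, which defines collecting duct principal cells, was at 0 in all 12 libraries. Of 7 fibroblast and mural cell markers, Pdgfra, Thy1 and Lum were at or near 0 throughout, whereas Dcn had 11 to 40 normalized counts in every library. The summed level of the 7 was 177 to 243 in wild-type, 374 to 436 in Pkd1-/- and 31 to 68 normalized counts in Pkd2-/- libraries. It came mostly from Postn and Acta2 in wild-type and Pkd1-/- libraries, and mostly from Acta2 and Dcn in Pkd2-/- libraries. Pkd2-/- replicates 1 and 3 stood apart from replicates 2 and 4 in a few fibrillar collagens, as given below. Log2 fold changes of members that rest on them are given with and without them, whereas those of the marker genes are given with all libraries only. In such bulk samples, fewer cells of a type and less RNA per cell cannot be told apart.

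Collagens are trimers of chains whose helical part repeats glycine followed by 2 other residues, glycine being small enough for the centre of the triple helix. Fibrillar collagens have a long uninterrupted helix and pack into fibrils, whereas the type IV collagens of basement membranes have many short interruptions and form flexible networks. In the endoplasmic reticulum prolines and lysines of the chains are hydroxylated, the trimers are held by the chaperone HSP47 (Serpinh1), and after secretion the end pieces of fibrillar procollagens are cut off and lysyl oxidases start the cross-links.

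The glycine rhythm is written in the coding sequence, where each glycine codon begins with GG. To show it, 54 bases of a fibrillar and of a basement membrane chain are printed with the glycine codon that opens each triplet of codons in capitals, from GENCODE M21 on GRCm38. The fibrillar stretch is the whole exon 15 of Col11a1 (chr3:114108281-114108334, plus strand), and the other lies in exon 3 of Col4a3 (chr1:82643209-82643262, plus strand).
Col11a1: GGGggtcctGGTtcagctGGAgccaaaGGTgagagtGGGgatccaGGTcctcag
Col4a3: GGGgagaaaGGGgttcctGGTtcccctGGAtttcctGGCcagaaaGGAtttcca
Over the whole coding sequence, Col11a1 held an unbroken run of 338 such triplets of codons, and 31 of its 67 coding exons were 54 bases long. The longest run in the 6 type IV chains was 39 to 66 triplets, with 22 to 27 separate runs of at least 5 triplets per chain. Col18a1 had 14 such runs, of which the longest held 30 triplets, and Col8a2, which is coded in only 2 exons, had 9, the longest of 59. Col11a1, Col8a2 and Col4a1, whose levels are given below, thus belong to 3 different structural kinds.

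Of the 59 genes, 24 averaged at least 10 normalized counts over the 12 libraries, 13 chains and 11 processing genes. A further 16 had a mean of at least 1, so that 40 were tested, and 19 were too low to test. Most collagen chains were scarcely transcribed in these cells, since 31 of the 44 averaged under 10 normalized counts. Of these 31, 17 never exceeded 3 normalized counts in a library and 3, Col9a1, Col13a1 and Col28a1, were at 0 in all 12. Genes were called when the adjusted p of limma was under 0.05 and the log2 fold change was at least 1 in either direction, on the scale of log2(normalized count + 1).

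In Pkd1-/- against wild-type cells, 11 of the 40 were called, 8 higher and 3 lower, where 6.24% of all 18552 genes tested were called (2.96% higher and 3.28% lower). In Pkd2-/- against wild-type cells 11 were called, 2 higher and 9 lower, where 9.62% of all genes were called (3.24% higher and 6.38% lower). Between Pkd2-/- and Pkd1-/- cells 17 were called, 2 higher and 15 lower in Pkd2-/-, where 11.8% of all genes were called (4.53% higher and 7.23% lower). Of the 24 genes with the higher mean, 9, 8 and 14 were called in these comparisons, beside 5.36%, 8.76% and 10.6% of all genes at that mean. The median log2 fold change of the 40 was 0.22 in Pkd1-/- and -0.47 in Pkd2-/- cells, beside 0.01 and -0.01 over all genes tested, and both comparisons share the wild-type libraries. Separated by role, 6 chains rose and 3 fell in Pkd1-/- cells, and 1 rose and 7 fell in Pkd2-/- cells, of 26 chains tested. Of 14 processing genes tested, 2 rose in Pkd1-/- cells, and 1 rose and 2 fell in Pkd2-/- cells. Libraries of the genotypes did not overlap for 16 of the 40 in Pkd1-/- against wild-type cells, where this held for 27.1% of all genes, and for 21 of the 40 in Pkd2-/- against wild-type cells, where it held for 37.2%. Without Pkd1-/- replicate 2, only 7 of the 40 were called in Pkd1-/- against wild-type cells. The exact permutation test of single genes could not give a two-sided p below 0.0286. Every called member with a mean of at least 10 reached this value. The members were called on the same libraries, so this adds no separate support to the calls.

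**Figure D1:**
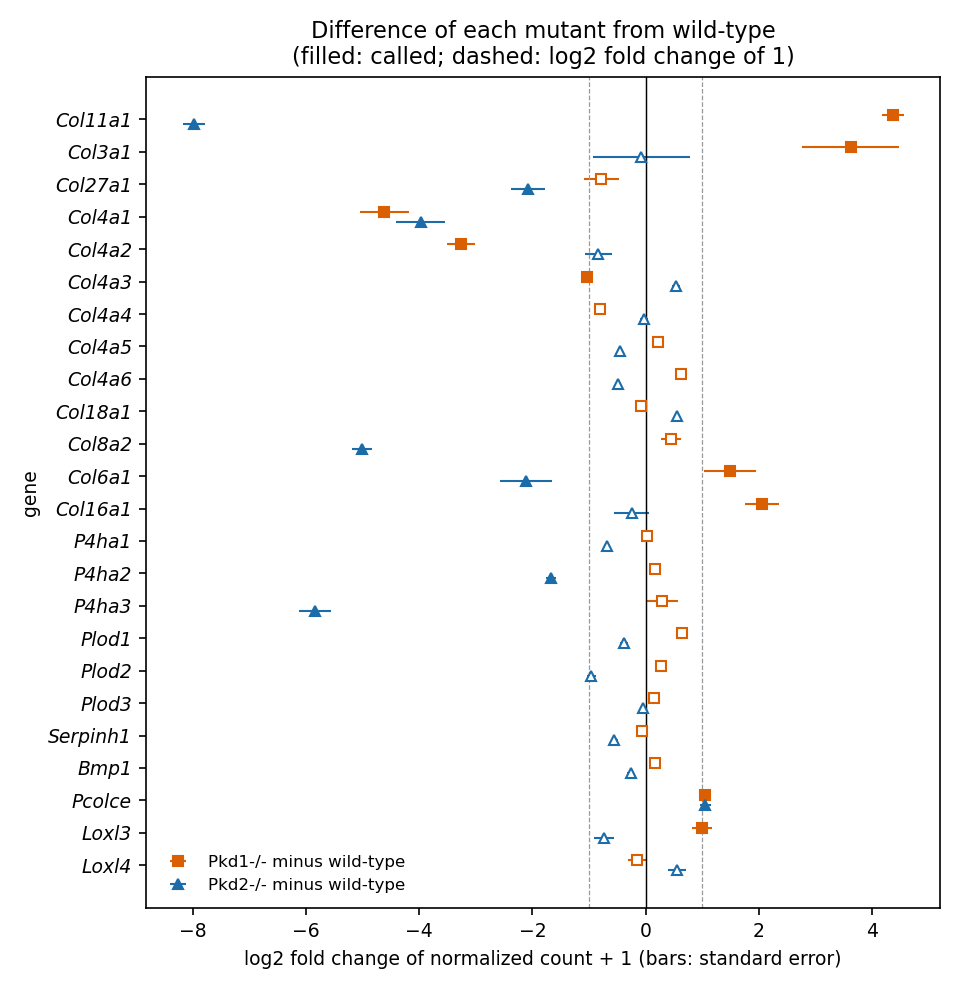
Log2 fold change of the 13 collagen chains and 11 processing genes that averaged at least 10 normalized counts, in Pkd1-/- (orange squares) and Pkd2-/- cells (blue triangles) relative to wild-type, with standard errors of limma; filled symbols are called. Col11a1 lies at 4.36 and -7.98, the latter set by the pseudocount, and P4ha3 and Col8a2 lie at 0.29 and 0.45 in Pkd1-/- cells and at -5.83 and -5.01 in Pkd2-/- cells.

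Among the fibrillar chains, Col11a1 stood out. It encodes the α1 chain of type XI collagen, a minor fibrillar collagen known from cartilage, where it sits inside fibrils of type II collagen and limits their diameter. Its normalized counts were 346, 343, 409 and 335 in wild-type, 6922, 7624, 7452 and 7484 in Pkd1-/-, and 1, 0, 0 and 1 in Pkd2-/- libraries 1 to 4. The genotypes were thus far apart and the libraries of each were close together, with Pkd1-/- on top and Pkd2-/- at the limit of detection. The level in Pkd1-/- was 20.6-fold that of wild-type (log2 fold change 4.36, SE 0.19, limma adjusted p = 4.19e-12). In Pkd2-/- cells only 2 normalized counts were left over the 4 libraries, against 1433 in wild-type, a ratio of 717 with a 95% exact counting interval of 198 to 5922 (limma adjusted p = 3.78e-16). Between the mutants 29482 counts stood against 2, a ratio of 14741 with an interval of 4080.4 to 121727. These intervals take a normalized count as a read, which is near the estimated worth of 0.886 to 1.13 normalized counts per read, and they cover counting error only. Per exon length Col11a1 was the second most abundant chain of Pkd1-/- cells after Col18a1, at 578 normalized counts per kb, beside 28.1 in wild-type cells. Its partner chain Col11a2, which joins it in the type XI trimer, had 1, 6, 8 and 1 counts in wild-type, 11, 4, 11 and 8 in Pkd1-/- and 1, 0, 1 and 1 in Pkd2-/- libraries, and was called only between the mutants (log2 difference -2.42, SE 0.54). The other partner gene of that trimer, Col2a1, had at most 2 counts in any library.

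The 250 bases before the annotated start of Col11a1 are printed because this gene spanned the widest range of levels of all members. They are taken from RefSeq (GRCm38, chr3:114030290-114030539, plus strand), and the capitals mark matches on either strand to GGGCGG (a GC box) and CCAAT.
Col11a1 upstream: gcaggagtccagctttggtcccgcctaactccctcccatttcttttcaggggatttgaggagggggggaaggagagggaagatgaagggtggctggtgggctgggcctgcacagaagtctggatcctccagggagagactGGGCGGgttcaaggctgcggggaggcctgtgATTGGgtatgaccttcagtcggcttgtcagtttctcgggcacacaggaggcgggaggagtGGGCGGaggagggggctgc
The window held 2 matches to GGGCGG, 1 to CCAAT and none to TATAAA (the TATA box). Of 32817 such windows before annotated starts, 32.7% held a GGGCGG match, 33.8% a CCAAT match and 12.4% a TATAAA match. The window had 62.4% G and C and 7 CG dinucleotides, where the median of all windows was 52.4% and 6.

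Col3a1, the chain of type III collagen in skin and vessel walls, was called in Pkd1-/- cells as well. Its counts were 7, 3, 3 and 6 in wild-type, 65, 69, 62 and 69 in Pkd1-/-, and 16, 0, 42 and 0 in Pkd2-/- libraries. All Pkd1-/- libraries lay above the rest, while the Pkd2-/- libraries fell apart into 2 with reads and 2 with none. The rise in Pkd1-/- cells was 13.9-fold (log2 fold change 3.62, SE 0.86, limma adjusted p = 0.00359). The split Pkd2-/- libraries enter this SE through the pooled spread. Without Pkd2-/- replicates 1 and 3 the limma adjusted p was 1.83e-07 at the same fold change. In Pkd2-/- cells the log2 fold change was -0.07 with all libraries, and -2.45, past the threshold, without replicates 1 and 3. The difference between the mutants was called with all libraries (log2 difference -3.69, SE 0.86) and without replicates 1 and 3 (-6.07), and it ranged from -4.71 without Pkd2-/- replicate 3 to -2.90 without Pkd2-/- replicate 2 or 4. The same replicates 1 and 3 held 7 and 44 counts of Col1a2, against 0 and 0 in replicates 2 and 4, and 16 and 31 of Col1a1, against 4 and 2. They also held 2 and 6 counts of Col6a3, a gene at 0 in the other 10 libraries. Replicate 3 had the highest sum of fibroblast markers of the Pkd2-/- libraries, 68 beside 31 to 40, and 22 counts of Postn beside 0 to 3. The sum of replicate 1 was 36, below the 40 of replicate 4, so the marker sums did not follow the split of the collagens. The part of other cells in these counts was not tested. Neither type I chain was called in any comparison.

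Col27a1, a long fibrillar chain of cartilage, went down in Pkd2-/- cells. It had 61, 55, 83 and 44 counts in wild-type, 20, 42, 36 and 44 in Pkd1-/-, and 15, 7, 16 and 18 in Pkd2-/- libraries. The Pkd2-/- libraries lay below all others, and the Pkd1-/- libraries touched the wild-type range. Relative to wild-type the log2 fold change was -2.08 (SE 0.30, limma adjusted p = 1.65e-05) in Pkd2-/- and -0.78 (SE 0.30, limma adjusted p = 0.0649) in Pkd1-/- cells.

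**Figure D2:**
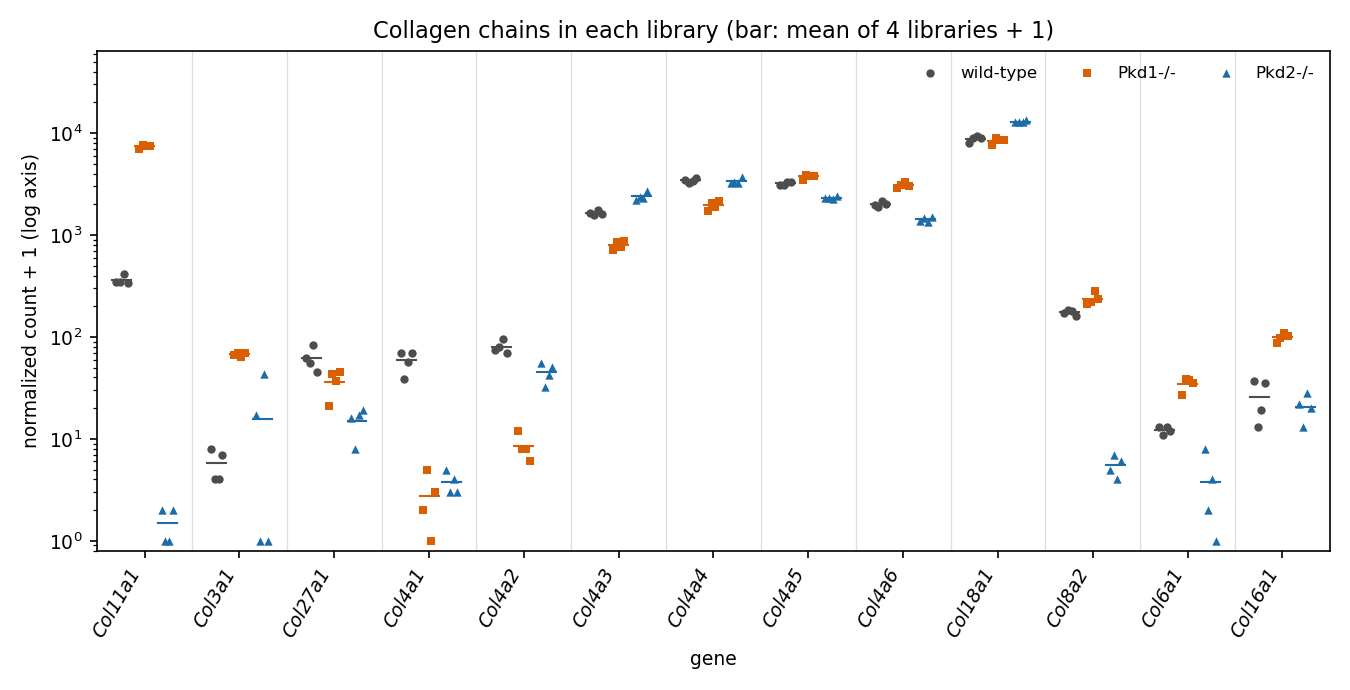
Normalized counts + 1 of the 13 collagen chains with a mean of at least 10, on a log axis, for each of the 4 wild-type (grey circles), 4 Pkd1-/- (orange squares) and 4 Pkd2-/- libraries (blue triangles), with the mean as a bar. Col11a1 runs from 0 or 1 counts in Pkd2-/- to 6922 to 7624 in Pkd1-/- libraries, and Col3a1 is split within Pkd2-/- into 16 and 42 against 0 and 0.

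The basement membrane chains formed the bulk of collagen transcripts. The 6 type IV genes lie in head-to-head pairs, Col4a1 with Col4a2 on chromosome 8, Col4a3 with Col4a4 on chromosome 1 and Col4a5 with Col4a6 on the X chromosome. Their chains form the trimer α1α1α2 of nearly all basement membranes, the trimer α3α4α5 of the glomerulus and parts of the tubule, the chains mutated in Alport syndrome, and the trimer α5α5α6 of Bowman's capsule and parts of the distal tubule and collecting duct. In wild-type cells the levels per kb of exon were 477 for Col4a5, 323 for Col4a4, 250 for Col4a6 and 165 for Col4a3, far above 11.9 for Col4a2 and 7.77 for Col4a1.

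Col4a1, a chain of the widespread trimer, was nearly lost in both mutants. It had 69, 38, 56 and 69 counts in wild-type, 1, 4, 0 and 2 in Pkd1-/-, and 4, 2, 3 and 2 in Pkd2-/- libraries. Every mutant library lay below every wild-type library and the mutants overlapped each other. The summed counts gave a wild-type level 33.1 times that of Pkd1-/- cells (95% exact counting interval 15.8 to 83.4) and 21.1 times that of Pkd2-/- cells (11.6 to 42.8), with limma adjusted p = 1.43e-07 and 4.94e-07. Its neighbour and partner Col4a2 had 74, 78, 94 and 68 counts in wild-type, 11, 7, 7 and 5 in Pkd1-/-, and 55, 31, 41 and 50 in Pkd2-/- libraries. Here the genotypes did not overlap, and Pkd2-/- lay between the others. Col4a2 was 10.5-fold lower in Pkd1-/- cells (log2 fold change -3.26, SE 0.24, limma adjusted p = 6.79e-09) and 1.77-fold lower in Pkd2-/- cells (-0.83, SE 0.24, limma adjusted p = 0.00964), the latter under the fold threshold. The ratio of Col4a1 to Col4a2 per exon length was 0.642 in wild-type and 0.0540 in Pkd2-/- cells, and the log2 ratios of the 4 Pkd2-/- libraries, -4.82 to -3.95, all lay below those of wild-type, -1.21 to -0.15. In Pkd1-/- cells the ratio rests on so few reads that its log2 value ranged from -3.63 to -0.98 in 3 libraries, and it could not be taken in the fourth. The annotated genes overlap by 22 bases at their starts, and whether reads were counted by strand is not given in the sources used here.

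Col4a3 and Col4a4 were lower in Pkd1-/- cells. Col4a3 had 1640, 1552, 1772 and 1614 counts in wild-type, 717, 861, 762 and 877 in Pkd1-/-, and 2195, 2351, 2312 and 2683 in Pkd2-/- libraries. The genotypes did not overlap, and Col4a3 was lowest in Pkd1-/- and highest in Pkd2-/-. Col4a3 fell 2.04-fold in Pkd1-/- cells (log2 fold change -1.03, SE 0.07, limma adjusted p = 2.52e-09), a value close to the threshold that came to -0.98 without Pkd1-/- replicate 1 and -0.998 without wild-type replicate 3. In Pkd2-/- cells it was 1.45-fold higher (0.53, SE 0.07, limma adjusted p = 7.08e-06), under the fold threshold. Col4a4 had a mean of 3425 ± 177 counts in wild-type libraries, 1954 ± 194 in those of Pkd1-/- and 3366 ± 217 in those of Pkd2-/- (SD, n = 4). Its log2 fold change was -0.81 (SE 0.07) in Pkd1-/- cells, with no overlap of libraries, and -0.03 (SE 0.07, limma adjusted p = 0.794) in Pkd2-/- cells, where the ranges overlapped.

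Between the genes of this pair lie only 71 bases, printed because both genes are transcribed away from them and both were lower in Pkd1-/- cells. They were read from RefSeq (GRCm38, chr1:82586850-82586920, plus strand), where Col4a3 begins to the right and Col4a4 to the left.
Col4a3/Col4a4: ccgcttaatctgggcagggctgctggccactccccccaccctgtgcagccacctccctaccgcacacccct
None of the 3 motifs searched above was found in them on either strand. The chains of the pair were not kept in a constant proportion. The ratio of Col4a3 to Col4a4 per exon length was 0.511 in wild-type cells, 0.438 in those without Pkd1 and 0.754 in those without Pkd2, or -0.97 ± 0.098, -1.19 ± 0.018 and -0.41 ± 0.048 (SD, n = 4) on the log2 scale, and no library of a genotype lay within the range of another genotype.

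Col4a5 and Col4a6 were higher in Pkd1-/- and lower in Pkd2-/- cells. Col4a6 had 1975, 1877, 2139 and 1994 counts in wild-type, 2859, 3115, 3325 and 2990 in Pkd1-/-, and 1376, 1462, 1340 and 1508 in Pkd2-/- libraries. Again the genotypes did not overlap, in the order Pkd2-/-, wild-type, Pkd1-/-. Its log2 fold change was 0.62 (SE 0.06, limma adjusted p = 1.17e-07) in Pkd1-/- and -0.49 (SE 0.06, limma adjusted p = 1.23e-06) in Pkd2-/- cells, neither past the fold threshold, and the mutants differed by 2.16-fold (log2 difference -1.11, SE 0.06, limma adjusted p = 1.06e-11), which was called. Col4a5 had means of 3203 ± 143, 3744 ± 191 and 2324 ± 48.7 counts (SD, n = 4) in wild-type, Pkd1-/- and Pkd2-/- libraries, with log2 fold changes of 0.22 and -0.46 (SE 0.05) and no overlap of the genotypes. The ratio of Col4a5 to Col4a6 was 1.90 in wild-type cells, 1.45 in Pkd1-/- cells and 1.94 in Pkd2-/- cells, and the log2 ratios of the Pkd1-/- libraries (0.44 to 0.60) lay below all others (0.89 to 1.01).

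**Figure D3:**
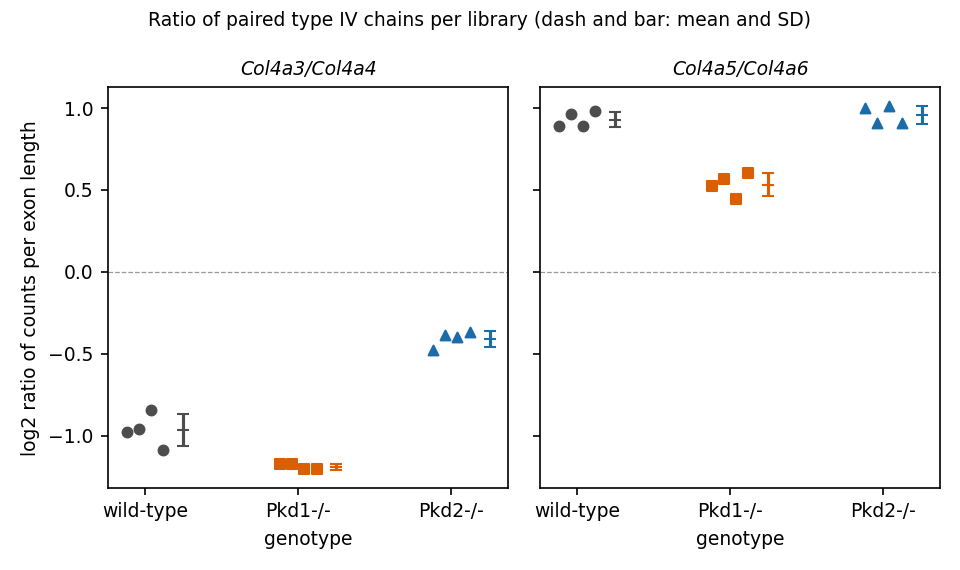
Log2 ratio of the counts per exon length of Col4a3 to Col4a4 (left) and of Col4a5 to Col4a6 (right) in each library, with mean and SD beside the points. Col4a3 to Col4a4 is highest in Pkd2-/- (mean -0.41) and lowest in Pkd1-/- libraries (mean -1.19), and Col4a5 to Col4a6 is lowest in Pkd1-/- libraries (mean 0.53).

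Col18a1, a basement membrane collagen and heparan sulfate proteoglycan whose end fragment is endostatin, was the most abundant chain in every genotype. It had means of 8820 ± 584 counts in wild-type, 8371 ± 547 in Pkd1-/- libraries and 12941 ± 249 in Pkd2-/- libraries (SD, n = 4). The Pkd1-/- libraries overlapped the wild-type range (log2 fold change -0.08, SE 0.05), whereas all Pkd2-/- libraries lay above it, 1.47-fold higher (0.56, SE 0.05, limma adjusted p = 1.04e-07) but under the fold threshold.

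Summed per exon length over all 44 chains, collagen transcripts came to 2575 ± 119 normalized counts per kb in wild-type libraries, 3073 ± 172 in Pkd1-/- and 2946 ± 84.7 in Pkd2-/- libraries (SD, n = 4). The sums of all 4 libraries of each mutant, 2821 to 3212 in Pkd1-/- and 2896 to 3072 in Pkd2-/-, lay above the wild-type sums of 2441 to 2714. Divided by the total of normalized counts of each library, however, the sum of Pkd2-/- replicate 2 lay just below that of wild-type replicate 3. The makeup differed more than the sum. Col18a1 took 48.8% of it in wild-type cells, 38.8% in Pkd1-/- and 62.6% in Pkd2-/-, and Col4a3 to Col4a6 together took 47.2%, 39.3% and 36.7%. Col11a1 took 1.09%, 18.8% and 0.0013%. Col4a1 and Col4a2 together took 0.762%, 0.0449% and 0.239%. These shares depend on one another and on the annotated exon lengths, and they describe transcripts, not protein.

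**Figure D4:**
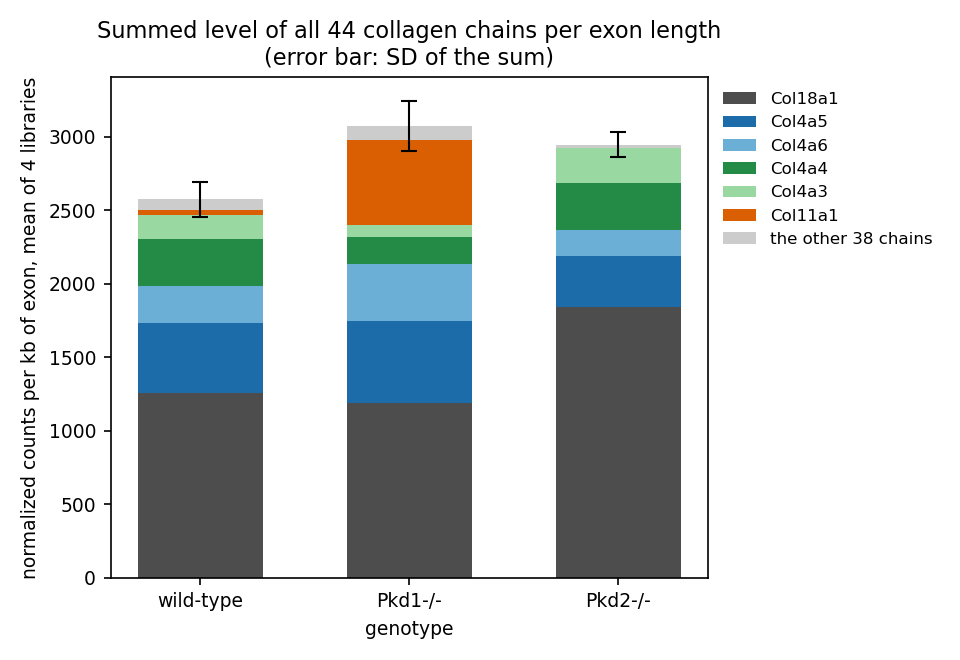
Mean normalized counts per kb of exon of the collagen chains, stacked for each genotype, with the SD of the sum over 4 libraries. Col18a1 and Col4a3 to Col4a6 make up most of each bar, and Col11a1 appears as 578 of 3073 in Pkd1-/- cells.

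Col8a2, a short-chain collagen that forms hexagonal networks in the membrane behind the cornea and around vessels, was almost lost in Pkd2-/- cells. Its counts were 169, 183, 180 and 159 in wild-type, 211, 221, 284 and 232 in Pkd1-/-, and 4, 6, 3 and 5 in Pkd2-/- libraries. The Pkd2-/- libraries lay far below the others, and the Pkd1-/- libraries all lay above wild-type by a smaller step. It was 38.4-fold lower in Pkd2-/- cells (log2 fold change -5.01, SE 0.18, limma adjusted p = 6.89e-14), and its log2 fold change in Pkd1-/- cells was 0.45 (SE 0.18, limma adjusted p = 0.0733). The latter limma adjusted p was 0.0179 without Pkd2-/- replicates 1 and 3, with the fold change still under the threshold. Col8a1, which can share its trimers, had at most 4 counts in any library.

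Col6a1, a chain of the beaded filaments of type VI collagen, rose in Pkd1-/- and fell in Pkd2-/- cells. It had 12, 10, 12 and 11 counts in wild-type, 26, 38, 37 and 34 in Pkd1-/-, and 7, 1, 3 and 0 in Pkd2-/- libraries, with no overlap between genotypes. Relative to wild-type the log2 fold change was 1.49 (SE 0.46, limma adjusted p = 0.0216) and -2.11 (SE 0.46, limma adjusted p = 0.00105). The call in Pkd1-/- cells did not hold without Pkd1-/- replicate 2 or 3, with log2 fold changes of 1.43 and 1.45. Without Pkd2-/- replicates 1 and 3 the log2 fold change in Pkd2-/- cells was -3.11, and the limma adjusted p in Pkd1-/- against wild-type cells was 0.00141. Its partner Col6a2 had 7, 5, 5 and 10 counts in wild-type, 12, 13, 5 and 7 in Pkd1-/-, and 4, 1, 4 and 0 in Pkd2-/- libraries, and was called lower in Pkd2-/- cells (log2 fold change -1.50, SE 0.50). That call did not hold without wild-type replicate 4 or Pkd2-/- replicate 2 or 4, at -1.31, -1.36 and -1.03, and the value was -2.41 without Pkd2-/- replicates 1 and 3.

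Among the collagens that attach to fibrils without forming their own, Col16a1 had 36, 12, 18 and 34 counts in wild-type, 86, 97, 109 and 101 in Pkd1-/-, and 21, 12, 27 and 19 in Pkd2-/- libraries. The Pkd1-/- libraries were all above the others, and the Pkd2-/- libraries overlapped wild-type. The rise in Pkd1-/- cells was 3.93-fold (log2 fold change 2.06, SE 0.30, limma adjusted p = 3.68e-05). Col12a1, of the same kind, had 7, 2, 6 and 12 counts in wild-type, 17, 28, 15 and 16 in Pkd1-/-, and 0, 0, 1 and 0 in Pkd2-/- libraries. Its 3 genotypes did not overlap, and it was called higher in Pkd1-/- cells (log2 fold change 1.51, SE 0.45, limma adjusted p = 0.0176) and lower in Pkd2-/- cells (-2.52, SE 0.45, limma adjusted p = 0.000154), the former not without wild-type replicate 2 (1.11) or Pkd1-/- replicate 2 (1.31). Col20a1 had 8, 0, 6 and 3 counts in wild-type, 7, 13, 16 and 9 in Pkd1-/-, and 17, 12, 8 and 12 in Pkd2-/- libraries. It was called higher in both mutants (1.56 and 1.69, SE 0.53), although the ranges met or overlapped and the exact permutation test gave p = 0.0571 in each. Its call in Pkd1-/- cells was lost without wild-type replicate 2 or 4 or Pkd1-/- replicate 2, 3 or 4, with log2 fold changes of 0.90 to 1.64.

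The sum of the 7 fibroblast and mural markers was higher in Pkd1-/- and lower in Pkd2-/- than in wild-type libraries. The rise of the sum in Pkd1-/- libraries came from Postn alone, since of the 4 markers tested the other 3 had log2 fold changes of -0.58 (Acta2), -0.28 (Dcn) and -0.01 (Pdgfrb), and the median of the 4 was -0.15. Postn, a matricellular protein that binds collagens, had 24 to 81 counts in wild-type, 286 to 311 in Pkd1-/- and 0 to 22 in Pkd2-/- libraries. Acta2, the actin of smooth muscle and myofibroblasts, had 109 to 143, 60 to 127 and 19 to 23. Against wild-type, the 4 tested markers had log2 fold changes of -3.79 (Postn), -2.45 (Acta2), -1.56 (Pdgfrb) and -0.63 (Dcn) in Pkd2-/- cells. All but Dcn were called lower, where 6.38% of all genes were called lower. Pdgfrb had at most 4 counts in any library, and Postn had 22 counts in Pkd2-/- replicate 3, beside 0 to 3 in the other Pkd2-/- libraries. The markers Pdgfra, Thy1 and Lum did not exceed 3 counts in any library, whereas Dcn had 17 to 40 in wild-type, 18 to 23 in Pkd1-/- and 11 to 24 in Pkd2-/- libraries. The part of other cells in the levels of the collagens was not tested.

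Among the processing genes, the prolyl 4-hydroxylase subunits make 4-hydroxyproline, which stabilizes the triple helix at body temperature. P4ha3 had 161, 136, 148 and 153 counts in wild-type, 173, 178, 186 and 196 in Pkd1-/-, and 1, 1, 5 and 1 in Pkd2-/- libraries. It was thus nearly absent from Pkd2-/- cells alone. The wild-type level was 74.8 times that of Pkd2-/- cells (95% exact counting interval 37.7 to 174, limma adjusted p = 5.28e-12). All Pkd1-/- libraries lay above all wild-type libraries by a small step (exact permutation test, p = 0.0286), with a log2 fold change of 0.29 (SE 0.28, limma adjusted p = 0.503). That SE is pooled with the near-zero Pkd2-/- counts, and the limma adjusted p was 0.144 without Pkd2-/- replicates 1 and 3. P4ha2 had 893, 981, 794 and 843 counts in wild-type, 937, 914, 1168 and 944 in Pkd1-/-, and 310, 249, 260 and 279 in Pkd2-/- libraries. All Pkd2-/- libraries were below the others, by 3.20-fold relative to wild-type (log2 fold change -1.67, SE 0.09, limma adjusted p = 2.36e-11), while wild-type and Pkd1-/- overlapped. P4ha1, the subunit with the highest level, had means of 5729 ± 257, 5826 ± 384 and 3567 ± 279 counts (SD, n = 4), and was 1.61-fold lower in Pkd2-/- cells (-0.69, SE 0.06, limma adjusted p = 1.88e-08), under the fold threshold. All 3 catalytic subunits were therefore lower in Pkd2-/- than in wild-type cells by the adjusted p, as were 22.3% of all genes tested, and none of the 3 passed it in Pkd1-/- cells. Per exon length P4ha1 held 1393 normalized counts per kb in wild-type cells, beside 141 for P4ha2 and 47.7 for P4ha3. P4hb, the common partner subunit and a protein disulfide isomerase, had means of 24410.2, 24706.5 and 24115.8 counts in wild-type, Pkd1-/- and Pkd2-/- cells (log2 fold changes 0.02 and -0.02).

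The lysyl hydroxylases prepare lysines for sugar attachment and cross-linking. Plod1 had 1006, 1214, 1152 and 1251 counts in wild-type, 1766, 1622, 1990 and 1825 in Pkd1-/-, and 842, 967, 905 and 823 in Pkd2-/- libraries. The genotypes did not overlap. Its log2 fold change was 0.64 (SE 0.08) in Pkd1-/- and -0.38 (SE 0.08) in Pkd2-/- cells, and the mutants differed by 2.04-fold (log2 difference -1.02, limma adjusted p = 1.78e-09), a call that was lost without Pkd1-/- replicate 3 (-0.97) or Pkd2-/- replicate 4 (-0.99). Plod2, which acts on the ends of the chains and sets the kind of cross-link, had 1778, 1603, 1743 and 2090 counts in wild-type, 1904, 2096, 2510 and 2221 in Pkd1-/-, and 873, 942, 900 and 980 in Pkd2-/- libraries. The Pkd2-/- libraries lay below all others, at 1.95-fold under wild-type (log2 fold change -0.96, SE 0.08, limma adjusted p = 1.75e-08), and wild-type and Pkd1-/- overlapped. The value passed the fold threshold after rescaling to the upper quartile or without wild-type replicate 2, both at -1.01. Plod3, the most abundant of them, had means of 2895 ± 197, 3214 ± 115 and 2798 ± 166 counts (SD, n = 4), with log2 fold changes of 0.15 and -0.05 (SE 0.06).

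**Figure D5:**
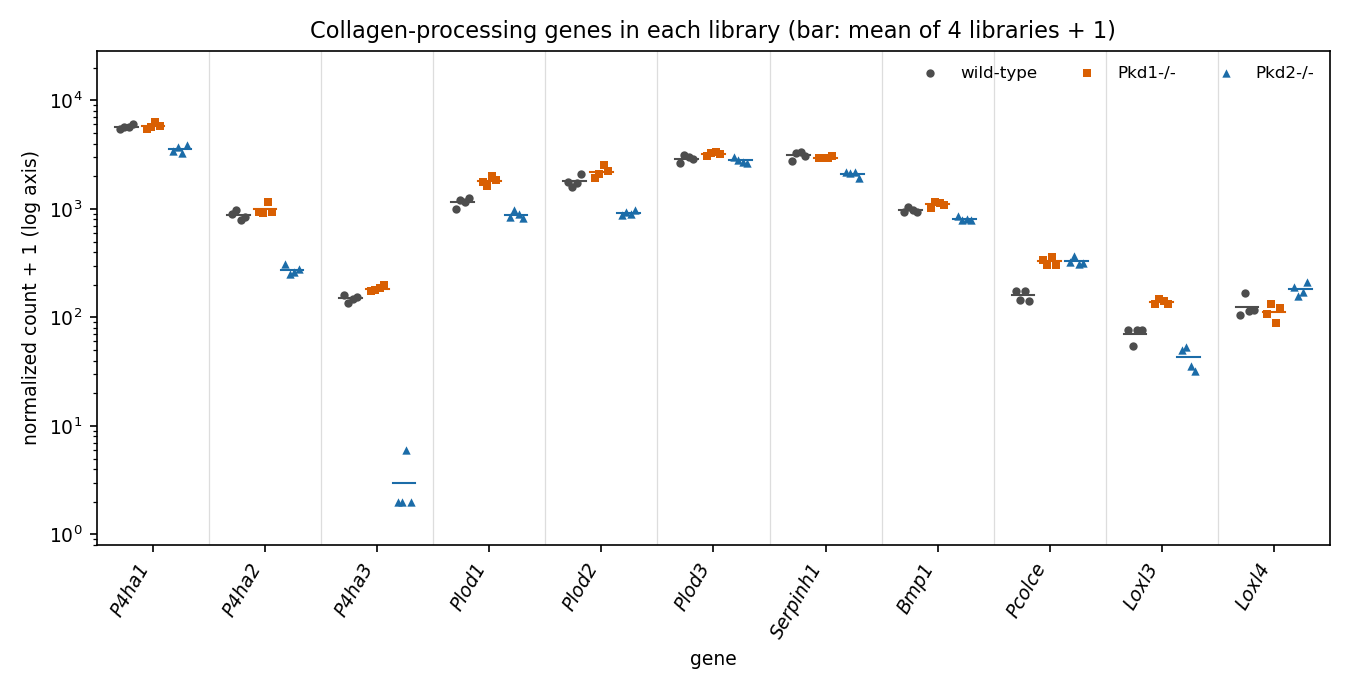
Normalized counts + 1 of the 11 collagen-processing genes with a mean of at least 10, on a log axis, for each wild-type (grey circles), Pkd1-/- (orange squares) and Pkd2-/- library (blue triangles), with the mean as a bar. P4ha3 falls from 136 to 161 counts in wild-type to 1 to 5 in Pkd2-/- libraries, and Pcolce lies higher in both mutants than in wild-type.

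Serpinh1, which encodes the collagen chaperone HSP47, had means of 3107 ± 268, 2967 ± 54.7 and 2117 ± 126 counts (SD, n = 4) in wild-type, Pkd1-/- and Pkd2-/- libraries. All Pkd2-/- libraries were below the rest (log2 fold change -0.55, SE 0.06, limma adjusted p = 4.27e-07), under the fold threshold, and the other genotypes overlapped.

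Bmp1, the proteinase that removes the carboxyl end of fibrillar procollagens, had means of 975 ± 53.5, 1098 ± 64.4 and 811.5 ± 29.4 counts (SD, n = 4), with log2 fold changes of 0.17 in Pkd1-/- and -0.26 in Pkd2-/- cells (SE 0.06). Pcolce, which enhances this cleavage, had 175, 143, 173 and 142 counts in wild-type, 340, 305, 361 and 305 in Pkd1-/-, and 321, 364, 310 and 316 in Pkd2-/- libraries. The mutants overlapped each other and lay above all wild-type libraries, with a log2 fold change of 1.05 (SE 0.10) in each comparison, which share the wild-type libraries. This value is near the threshold. It came to 0.9996 in Pkd1-/- without wild-type replicate 4, and in Pkd2-/- cells to 0.999 without Pkd2-/- replicate 2 and 0.997 after rescaling to the upper quartile. Pcolce2 had at most 14 counts in any library and was not called.

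Of the lysyl oxidases, which oxidize lysines for cross-linking, only Loxl3 and Loxl4 had a mean of at least 10 counts. Loxl3 had 75, 53, 75 and 75 counts in wild-type, 132, 148, 142 and 133 in Pkd1-/-, and 49, 52, 35 and 31 in Pkd2-/- libraries. The genotypes did not overlap. The difference between the mutants was called (log2 difference -1.74, SE 0.18, limma adjusted p = 1.47e-07), as was the 2.00-fold rise in Pkd1-/- cells (1.00, SE 0.18, limma adjusted p = 0.000253), which lay on the fold threshold and came to 0.88 without wild-type replicate 2, 0.97 without Pkd1-/- replicate 2 and 0.99 without Pkd1-/- replicate 3. Loxl4 had means of 125 ± 27.7, 112 ± 19.2 and 182.5 ± 24.3 counts (SD, n = 4) and log2 fold changes of -0.15 and 0.56 (SE 0.16), with overlap between wild-type and either mutant. Lox, Loxl1 and Loxl2 had at most 10, 5 and 6 counts in any library, and none was called.

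Further enzymes and chaperones that act on collagen in the secretory pathway were read as a list of 19 genes. Of the 13 tested, 1 was called in Pkd1-/- and 1 in Pkd2-/- against wild-type cells, beside 6.24% and 9.62% of all genes, with median log2 fold changes of 0.02 and -0.02. A share of 1 in 13 is near those of all genes. At any fold change, 3 and 9 of the 13 had an adjusted p under 0.05, beside 27.1% and 42.3% of all genes. P3h1, a prolyl 3-hydroxylase, rose from 103 to 120 counts in wild-type to 223 to 316 in Pkd1-/- libraries (log2 fold change 1.22, limma adjusted p = 9.19e-08). It had 158 to 185 in Pkd2-/- libraries (0.60, limma adjusted p = 0.000208), under the fold threshold. Its complex partners Crtap and Ppib were not called. P3h3 fell from 17 to 22 counts in wild-type to 1 to 9 in Pkd2-/- libraries (-2.05, limma adjusted p = 0.000334), and had 10 to 12 in Pkd1-/- libraries (-0.72, limma adjusted p = 0.205).

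Among 8 collagen receptor genes, 6 were tested, of which 2 were called in Pkd1-/- and 1 in Pkd2-/- against wild-type cells, beside 6.24% and 9.62% of all genes. Itga2, the α2 integrin subunit, fell from 209 to 302 counts in wild-type to 58 to 104 in Pkd1-/- libraries (log2 fold change -1.65), and had 321 to 474 in Pkd2-/- libraries (0.47). Itga1, the α1 subunit that binds type IV collagen, rose from 385 to 463 counts in wild-type to 869 to 1163 in Pkd2-/- libraries (1.23, limma adjusted p = 2.86e-09), and had 261 to 321 in Pkd1-/- libraries (-0.55). Ddr2, a receptor kinase for fibrillar collagens, rose from 9 to 18 counts in wild-type to 43 to 66 in Pkd1-/- libraries (1.92) and had 5 to 9 in Pkd2-/- libraries (-0.78). All 3 were called between the mutants, Itga1 and Itga2 higher and Ddr2 lower in Pkd2-/- cells, where 11.8% of all genes were called. Itgb1, the common partner of both integrin subunits, and the epithelial receptor Ddr1 were not called.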

How the data were processed

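RNA-seq covered 12 libraries of mIMCD3 cells, 4 per genotype. Reads were trimmed (Trim Galore), aligned to GRCm38 (mm10, HISAT2) and counted per Ensembl gene (HTSeq) by the authors, who then divided the counts by DESeq2 size factors. The deposited values are these normalized counts, rounded to whole numbers, and are treated here as a score, so that no read count model was fitted. Spacing of low values put the depth at 23194317 to 30335543 reads per library, and a count of 0 allows up to 3 counts. No 2 libraries were identical.

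Log2(normalized count + 1) was tested with limma 3.58.1 (R 4.3.3, lmFit and eBayes with a variance trend) over the 18552 genes that averaged 1 or more, all 12 libraries in 1 model, with two-sided p-values adjusted by Benjamini-Hochberg over all genes of a comparison. For single genes an exact permutation test, two-sided, was added. The script was tested on simulated data. Gene symbols and exon lengths came from GENCODE M21, which holds 47223 of the identifiers and lacks 419. Other steps ran in Python 3.11.15 (scipy 1.17.1, pandas 2.3.3, numpy 2.4.6, matplotlib 3.10.9).

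Values are given per library for members with a mean of at least 10 that were called in any comparison, and as genotype means or ranges for the others with that mean; lower members are given as counts, with values of those called. Named in addition, after their values were seen, were Col1a1, Col1a2, Col6a3, Col2a1, Col8a1, Pcolce2, the low lysyl oxidases, and listed genes that were not called. The members and gene lists were chosen with earlier results of these data known. Alternatives were other pseudocounts, filters, scaling, models and thresholds, a replicate block, and leaving out libraries.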

Additional observations from a re-analysis of the deposited data

Results flagged for a closer look

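A library was set apart when its gap to the nearest of the 4 libraries of its genotype, divided by their range, was above Dixon's 95% critical value. Of 72 groups (24 genes with a mean of at least 10 in 3 genotypes), 7 held such a library, where chance gives about 1 in 20. They were Col11a1 in wild-type replicate 3 (409 counts), Col4a4 in Pkd2-/- replicate 4 (3690), Loxl3 and Loxl4 in wild-type replicate 2 (53 and 166), P4ha2 in Pkd1-/- replicate 3 (1168), P4ha3 in Pkd2-/- replicate 3 (5) and Serpinh1 in Pkd2-/- replicate 4 (1930).

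For 14 of these 24 genes the effects of the mutants differed, tested as the difference between Pkd2-/- and Pkd1-/- libraries in limma with Benjamini-Hochberg adjusted p under 0.05 and a log2 difference of at least 1, where 10.6% of all genes at that mean were called. Higher in Pkd2-/- were Col4a2 (log2 difference 2.43) and Col4a3 (1.57). Lower were the chains Col11a1 (-12.35), Col8a2 (-5.46), Col3a1 (-3.69, or -6.07 without Pkd2-/- replicates 1 and 3), Col6a1 (-3.60, or -4.60 without them), Col16a1 (-2.31), Col27a1 (-1.30) and Col4a6 (-1.11), and the processing genes P4ha3 (-6.13), P4ha2 (-1.85), Loxl3 (-1.74), Plod2 (-1.23) and Plod1 (-1.02). The value of Col11a1 depends on the pseudocount, since Pkd2-/- libraries hold 0 or 1 counts.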

How the results depend on the processing

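No log2 fold change of the 28 genes followed, in 84 gene and comparison pairs, changed its direction past the threshold, and 69 kept their call under every setting run for them, other than dropping the fold threshold. The 12 pairs of Col6a2, Col11a2, Col12a1 and Col20a1 could not be run at a minimum mean of 10. Without the fold change threshold, 5020 genes (27.1% of all tested) and 18 of the 40 members were called in Pkd1-/- against wild-type. In Pkd2-/- against wild-type these were 7852 genes (42.3%) and 23 members, and between the mutants 8588 genes (46.3%) and 25 members. With a minimum mean of 10, 739 genes were called in Pkd1-/- against wild-type. Leaving out 1 library gave 7 to 11 members called in Pkd1-/- against wild-type, 9 to 13 in Pkd2-/- against wild-type and 16 to 18 between the mutants. Without Pkd2-/- replicates 1 and 3, chosen after seeing the data, 11, 11 and 18 members were called. Calls near the threshold were lost at a pseudocount of 5 for Col20a1 (0.87 in Pkd1-/-, 0.96 in Pkd2-/-), Col6a2 (-0.72 in Pkd2-/-, -0.98 between the mutants) and Loxl3 (0.96 in Pkd1-/-), and at 0.5 for Col6a1 (1.53 in Pkd1-/-). Col20a1 was also lost in Pkd1-/- with no filter or a model of only 2 genotypes (1.56 in each), and in Pkd2-/- without replicates 1 and 3 (1.71).

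The replicate numbers did not pair the libraries throughout, as correlations of deviations between libraries with the same number ran from -0.0726 to 0.1997, and not every library correlated best with its own number. Libraries numbered 4 did go together, at 0.1997 (wild-type and Pkd2-/-), 0.1672 (Pkd1-/- and Pkd2-/-) and 0.0878 (wild-type and Pkd1-/-). With a replicate block, 1170, 1790 and 2183 genes and 11, 11 and 17 members were called in the 3 comparisons. Genes under about 10 counts carry the counting error of few reads, and differences among them may have been missed.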

Other observations

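The members that averaged at least 10 counts and were called lie on many chromosomes, and the genes around them were compared because clones can differ in the copy number of a stretch of chromosome. Over the tested genes with a mean of at least 10 within 5 Mb of such a member, the median log2 fold change lay between -0.43 and 0.28 in all comparisons. Around Col11a1 on chromosome 3 the median of 27 neighbours was 0.02 in Pkd1-/- and -0.02 in Pkd2-/- cells. Of these neighbours 3 and 1 were called, beside 5.36% and 8.76% of all genes at that mean. Around P4ha3 on chromosome 7 the median of 80 neighbours was -0.12 in Pkd2-/- cells, and around Col8a2 on chromosome 4 that of 96 neighbours was 0.02. The largest median shift was near Pcolce on chromosome 5, where the 123 neighbours were at 0.28 in Pkd1-/- and -0.05 in Pkd2-/- cells, beside 1.05 for Pcolce in each.

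The RefSeq windows of 250 bases before P4ha3 and Col8a2, which were also nearly lost in Pkd2-/- cells, held 67.2% and 70% G and C and 23 and 24 CG dinucleotides, with 5 and 4 matches to GGGCGG. The window of Col4a1, nearly lost in both mutants, held 74.4% G and C and 31 CG dinucleotides with 0 matches to GGGCGG, and that of Col11a1 had 7 CG dinucleotides and 2 matches. The window of Col4a2, which was 1.77-fold lower in Pkd2-/- cells and not called there, held 73.6% G and C, 26 CG dinucleotides and 2 matches. The medians of all windows were 52.4% and 6 CG dinucleotides. A link between these features and the levels was not tested.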
